A study of Rattus norvegicus with 48 samples.

Results

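Livers of ethanol-fed (EtOH) and carbohydrate-fed (CHO) rats were compared before any regeneration had begun, at 0 h. The comparison took every sample labelled 0 h, which gave 18 of the 48 samples of the series, each taken here as 1 animal. There were 9 EtOH-fed and 9 CHO-fed animals, and each diet held 3 untreated, 3 saline-treated and 3 AM21-treated rats. AM21 is a locked nucleic acid oligonucleotide antisense to miR-21, injected into the abdomen days before surgery, and saline animals received the vehicle. All animals were male Sprague-Dawley rats, young adults that had been pair-fed the liquid diet of the Lieber-DeCarli protocol for weeks. Total RNA of whole liver was assayed on the NanoString nCounter, in which a coloured barcode identifies and counts each miRNA. The values were log2 CPM, the base-2 logarithm of counts scaled to library size (CPM), for 143 miRNAs. Difference below means EtOH minus CHO on this log2 scale, so that 1 is a doubling. Unless another setting is named, fits held the treatment and the numbered set (1, 2 or 3) that the sample titles give, and each set holds 1 animal of each diet and treatment. The titles do not say what a set is, nor whether animals of the same set number were paired. Pairs below join the EtOH-fed and CHO-fed animal of the same treatment and set. Counts of pairs and the sign-flip tests rest on that choice. The labels number the samples within a group and do not say more of how they relate, so p-values measure the spread between these samples.

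MicroRNAs are short RNAs that guide the silencing complex to messenger RNAs, lowering their stability and translation. The bases near the 5′ end, called the seed, choose the targets, so miRNAs with one seed can act on overlapping sets of messages. In liver, miR-122 of hepatocytes is by far the most abundant, and chronic ethanol feeding fattens the organ and slows its regrowth after surgery. Whole liver also holds stellate, endothelial, Kupffer and blood cells. In such tissue, fewer cells of a type and less of a miRNA per cell cannot be told apart.

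The mature sequences of 11 of the 14 miRNAs that passed the test below are shown because shared seeds group part of the result. They come from RefSeq (GRCr8), 5′ to 3′, with the seed (bases 2 to 8) in capitals. Where the table named no arm, the arm usually read as the mature one was taken. The miRNAs miR-151, miR-674-3p and miR-582 are named only.
miR-152: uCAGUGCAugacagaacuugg
miR-148b-3p: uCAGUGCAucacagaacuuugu
miR-342-3p: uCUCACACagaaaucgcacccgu
miR-365: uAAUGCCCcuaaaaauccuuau
miR-30c: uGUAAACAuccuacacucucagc
miR-16: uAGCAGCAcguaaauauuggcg
miR-122: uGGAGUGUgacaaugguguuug
miR-27a: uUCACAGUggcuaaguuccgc
miR-196b: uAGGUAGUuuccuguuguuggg
miR-350: uUCACAAAgcccauacacuuucac
miR-3561-3p: uAUCCAGGguagacacucaga
The first 2 share 1 seed and were both higher in EtOH-fed animals. For comparison within seeds, the sequences of miR-27b and of 3 let-7 members are added.
miR-27b: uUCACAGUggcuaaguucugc
let-7a: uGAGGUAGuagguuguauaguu
let-7b: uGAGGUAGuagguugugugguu
miR-98: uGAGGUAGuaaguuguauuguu

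In the same build, miR-152 lies at chr10:82329435-82329455 on the plus strand within the span of Copz2, and miR-148b-3p at chr7:136299930-136299951 on the plus strand within Copz1. The miR-342-3p sequence is at chr6:133329715-133329737 (plus) within Evl, miR-365 at chr10:65184271-65184292 (plus) within Faul2, and miR-16 at chr2:155555343-155555364 (plus) within Smc4. For miR-30c there are 2 genomic copies, at chr5:139634505-139634527 (minus) within Nfyc and at chr9:33253695-33253717 (plus) within a long noncoding RNA gene. The miR-350 sequence is at chr13:91244549-91244572 (minus) within Cep170. No protein-coding or long noncoding gene spans miR-122 (chr18:61028831-61028852, plus), miR-27a (chr19:40859614-40859634, minus), miR-196b (chr4:82661149-82661170, minus) or miR-3561-3p (chr7:22195172-22195192, minus).

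The depth of the assay moved with diet. Total counts, recovered from the deposited values, ran from 58168 to 171780 in CHO-fed animals (median 126821) and from 92245 to 240355 in EtOH-fed animals (median 185564). The mean total was 1.467 times as high in EtOH-fed animals. It was higher in 9 of 9 pairs of the same treatment and set (exact sign-flip permutation test, two-sided p = 0.003906, the smallest that 9 pairs allow, and 0.0273 after adjustment over 7 such tests). miR-122 took a mean of 51.3% of the counts under CHO and 58.2% under EtOH, higher in 8 of 9 pairs (exact p = 0.0117, adjusted 0.0273). The deposited values multiply each total by a scaling factor (TMM), with a mean of 1.168 under CHO and 0.987 under EtOH. This factor was higher under EtOH in 1 of 9 pairs (exact sign-flip p = 0.0117, adjusted 0.0273). The scaled totals therefore differed less between diets than the totals. Probes for 8 miRNAs of muscle, brain and testis, which hepatocytes are not known for, averaged 47.9 counts under CHO and 55.1 under EtOH, with single counts of 14 to 129. Their mean count thus differed 1.15-fold, against 1.467-fold for the totals, and several of the miRNAs below lay at that level. What part depth had in the differences between diets was not tested beyond the settings given below.

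**Figure D1:**
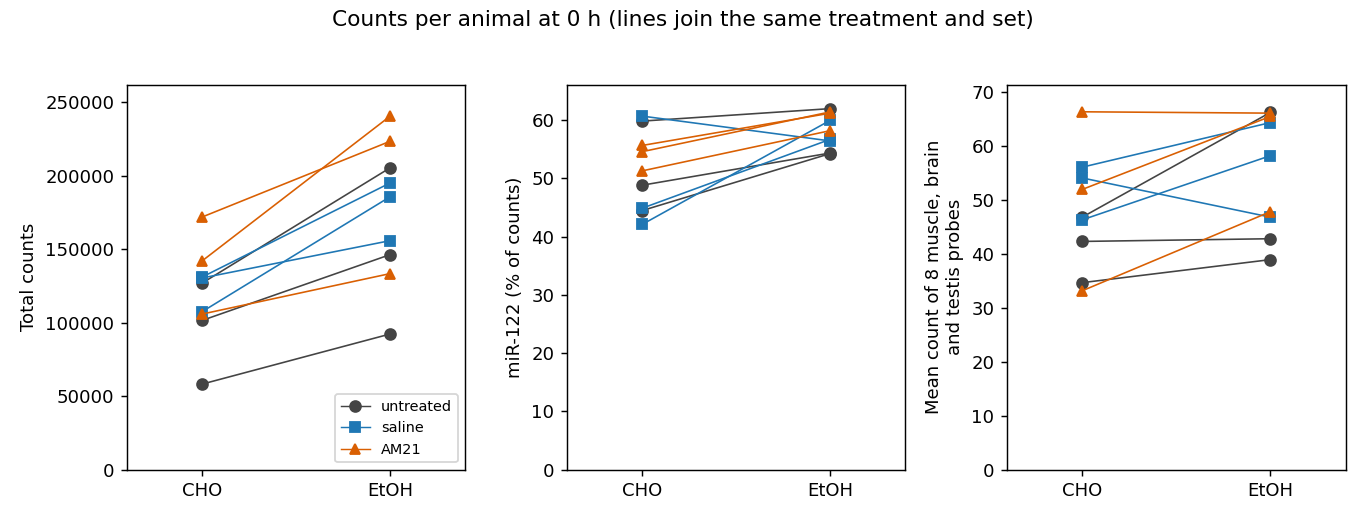
Total counts (left), the share of counts taken by miR-122 in percent (middle) and the mean count of 8 probes for muscle, brain and testis miRNAs (right) in each of the 18 animals at 0 h. Lines join the CHO-fed and EtOH-fed animal of the same treatment and set. All 9 lines rise on the left, 8 of 9 in the middle and 7 of 9 on the right.

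The target of AM21, miR-21, separated AM21-treated animals from the rest, with 17 to 32 counts in these 6 animals and 120 to 6710 in the other 12. A pair of EtOH-fed libraries labelled saline stood between these groups, with a level of 11.12 in set 1 (448 counts) and 9.65 in set 2 (120 counts). The third EtOH-fed saline animal was at 14.10, the 3 CHO-fed saline animals were at 12.97 to 13.93 and the 6 untreated animals at 13.46 to 15.00. The calls, the named lists and the differences within saline-treated animals are therefore also given without these 2 libraries where stated. With all animals the miR-21 difference was -0.54 (SE 0.44, limma adjusted p = 0.417), and without the 2 libraries it was 0.19 (adjusted p = 0.688). In untreated animals alone the EtOH-fed values were 14.99, 14.16 and 15.00 against 14.66, 13.46 and 14.65 in CHO-fed animals. That difference, 0.46, did not pass either (adjusted p = 0.0727).

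Across the 18 animals, limma called 14 of 143 miRNAs different between diets at a Benjamini-Hochberg adjusted p under 0.05, which is 9.79% of those tested. Of these, 9 were higher in EtOH-fed animals (6.29%) and 5 lower (3.5%). An unadjusted p under 0.05 was found for 38 miRNAs. All differences were modest, from -0.75 to 0.72, and the median over all 143 was -0.04. For no miRNA did the ranges of the 9 and 9 animals stay apart (0%). Counting pairs of the same treatment and set, 16 miRNAs (11.2%) moved one way in 9 of 9 pairs, and 7 of these were among the 14. All 14 had the same sign within untreated, saline-treated and AM21-treated animals. The 14 were called over these same animals, so this agreement is not a separate test.

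Several settings changed which miRNAs were called. Without the 2 saline libraries of low miR-21, miR-582 was the 1 miRNA still called of 143 (28 at an unadjusted p under 0.05), while the 14 differences kept their sign and stayed between 0.31 and 0.70 in size. The adjusted p of the other 13 then lay between 0.0769 and 0.174. With the log10 of the total count as a covariate, called the depth covariate below, limma called 16 miRNAs, of which 6 were among the 14. Total counts were higher under EtOH in 9 of 9 pairs, so that fit cannot fully tell depth and diet apart. Without the AM21-treated animals it called 5, all of them among the 14. Within single sets it called 8, 0 and 6 in sets 1, 2 and 3 (40, 17 and 23 at an unadjusted p under 0.05). The balance between directions rested on scaling. Scaled to the 100 highest probes, 7 were called higher and 9 lower. Scaled to total count, which put the median of all miRNAs at -0.28, 0.23 below the deposited scale, 1 was called higher and 43 lower. Each of the 3 scalings tried moved every miRNA by the same amount (0.02, -0.06 and -0.23). The smallest of the 14 differences was -0.34 (miR-27a), so none of the 14 could change sign. That fixed the signs and not the calls. Scaled to total count, at most 1 of the 9 higher miRNAs was still called.

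Among the 9 higher miRNAs, miR-342-3p, which is abundant in lymphocytes, had the largest difference. Its level ran from 7.90 to 9.34 in CHO-fed animals (median 8.68) and from 8.93 to 9.71 in EtOH-fed animals (median 9.45). The difference was 0.72 (SE 0.16, limma adjusted p = 0.0169), a 1.65-fold higher level, and 8 of 9 pairs rose. The ranges overlapped through untreated set 3, the pair that fell, and through the AM21-treated CHO animal of set 2. Its mean counts were 57.3 under CHO and 114.2 under EtOH, with a lowest count of 29. The muscle, brain and testis probes averaged 47.9 and 55.1, so the CHO level was near theirs. With the depth covariate the miR-342-3p difference was 1.08 (limma adjusted p = 0.0144).

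miR-365, which is made together with a miR-193 gene in mammals, rose in 9 of 9 pairs. It ran from 11.42 to 12.56 in CHO-fed animals (median 12.03) and from 12.09 to 12.87 in EtOH-fed animals (median 12.60). The difference was 0.55 (SE 0.12, limma adjusted p = 0.0169), and 0.70 (limma adjusted p = 0.0355) with the depth covariate. With mean counts of 606.3 and 1037, this miRNA was far above the level of the muscle, brain and testis probes. Within treatments the difference was 0.78 in untreated, 0.60 in saline-treated and 0.25 in AM21-treated animals (SE 0.21 each).

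miR-152 and miR-148b-3p, which share a seed and are known to target the DNA methyltransferase Dnmt1, were both higher. miR-152 ran from 10.19 to 11.14 in CHO-fed animals (median 10.60) and from 10.61 to 11.57 in EtOH-fed animals (median 11.37), with 9 of 9 pairs rising. Its difference was 0.55 (SE 0.15, limma adjusted p = 0.0285). With the depth covariate that difference was -0.01 (adjusted p = 0.949). miR-148b-3p ran from 9.11 to 9.72 (median 9.53) in CHO-fed and from 9.54 to 9.996 (median 9.88) in EtOH-fed animals. Its difference was 0.37 (SE 0.11, limma adjusted p = 0.0443), and 0.59 (adjusted p = 0.0355) with the covariate. Scaled to the 100 highest probes it was 0.30 (limma adjusted p = 0.111), and with an intensity trend the limma adjusted p was 0.0508.

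miR-122, the hepatocyte miRNA that maintains lipid and cholesterol metabolism, ran from 18.21 to 19.31 in CHO-fed animals (median 18.80) and from 18.99 to 19.35 in EtOH-fed animals (median 19.19). The difference was 0.43 (SE 0.13, limma adjusted p = 0.0443). Levels were nearly uniform among EtOH-fed animals (SD 0.14) and spread among CHO-fed animals (SD 0.38), and the saline pair of set 3 was the one that fell. Scaled to total count the difference was 0.19 (adjusted p = 0.110), scaled to the 100 highest probes it was 0.36 (adjusted p = 0.0850), and with the depth covariate it was 0.75 (adjusted p = 0.0294).

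miR-16, which restrains cyclins and is plentiful in red cells, ran from 13.64 to 14.45 in CHO-fed animals (median 13.99) and from 14.10 to 14.94 in EtOH-fed animals (median 14.49). The difference was 0.45 (SE 0.13, limma adjusted p = 0.0345), with 8 of 9 pairs rising. Within AM21-treated animals it was 0.02, against 0.49 in untreated and 0.85 in saline-treated animals (SE 0.18 each). Without the 2 saline libraries of low miR-21 the saline value was 0.90 (SE 0.30), from 1 EtOH-fed animal. With the depth covariate the difference over all animals was 0.24 (adjusted p = 0.479).

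miR-30c, known in liver for lowering lipoprotein output through Mttp, ran from 8.65 to 9.83 in CHO-fed animals (median 9.59) and from 9.69 to 10.37 in EtOH-fed animals (median 9.99). The difference was 0.48 (SE 0.13, limma adjusted p = 0.0301) and all 9 pairs rose. With the depth covariate it was 0.23 (adjusted p = 0.480). The lowest value belonged to the untreated CHO animal of set 2, the library with 58168 counts, in which miR-30c had 25 counts.

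miR-151, which lies in the gene of focal adhesion kinase in mammals, ran from 10.99 to 11.80 in CHO-fed animals (median 11.41) and from 11.69 to 12 in EtOH-fed animals (median 11.77). The difference was 0.42 (SE 0.10, limma adjusted p = 0.0225). With the depth covariate it was 0.48 (limma adjusted p = 0.0823). One CHO-fed animal, saline set 3, reached into the EtOH range. miR-674-3p ran from 7.45 to 8.54 (median 8.11) in CHO-fed and from 8.15 to 9.10 (median 8.65) in EtOH-fed animals, a difference of 0.57 (SE 0.14, adjusted p = 0.0225). Its mean counts, 36.8 and 66.3, bracketed the level of the muscle, brain and testis probes. With the depth covariate the miR-674-3p difference was 0.95 (limma adjusted p = 0.0144).

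The 5 lower miRNAs had low counts, apart from miR-27a. miR-582 had the largest difference of the 143. It ran from 7.81 to 8.39 in CHO-fed animals (median 8.03) and from 6.66 to 7.82 in EtOH-fed animals (median 7.36). The ranges met only at their ends, and 9 of 9 pairs fell. The difference was -0.75 (SE 0.15, limma adjusted p = 0.0109), a level 0.594 times that of CHO-fed animals. Its mean counts, 37.0 under CHO and 27.2 under EtOH, lay below the mean of the muscle, brain and testis probes in both diets. With the depth covariate it was -0.56 (adjusted p = 0.145).

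miR-3561-3p ran from 8.16 to 9.08 in CHO-fed animals (median 8.42) and from 7.20 to 8.67 in EtOH-fed animals (median 7.88). The difference was -0.64 (SE 0.16, limma adjusted p = 0.0225), with 9 of 9 pairs falling, and mean counts were 48.2 and 39.9. With the depth covariate it was -0.13 (adjusted p = 0.693). miR-196b, encoded in a Hox cluster and known for targeting Hox messages, ran from 8.46 to 9.29 (median 8.86) in CHO-fed and from 8.02 to 8.69 (median 8.43) in EtOH-fed animals. Its difference was -0.45 (SE 0.12, adjusted p = 0.0301), and -0.66 (adjusted p = 0.0412) with that covariate. Mean counts of 65.6 and 60.7 were nearly equal, in libraries whose totals, before the TMM factor, differed 1.467-fold.

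miR-27a, known for targets in lipid metabolism such as Pparg, was the best measured of the lower miRNAs, with mean counts of 425.9 and 415.1. It ran from 11.38 to 11.83 in CHO-fed animals (median 11.59) and from 11.06 to 11.44 in EtOH-fed animals (median 11.21). The difference was -0.34 (SE 0.09, limma adjusted p = 0.0306), and the AM21 pair of set 2 was the one that did not fall. With the depth covariate the difference was -0.37 (limma adjusted p = 0.129). miR-350 ran from 8.53 to 9.34 (median 8.85) in CHO-fed and from 8.39 to 8.95 (median 8.49) in EtOH-fed animals. Its difference was -0.37 (SE 0.11, adjusted p = 0.0443) and all 9 pairs fell, with mean counts of 70.1 and 67.0. With the depth covariate it was -0.35 (limma adjusted p = 0.217). As for miR-196b, the mean counts of miR-27a and miR-350 were nearly equal in libraries whose totals, before the TMM factor, differed 1.467-fold.

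**Figure D2:**
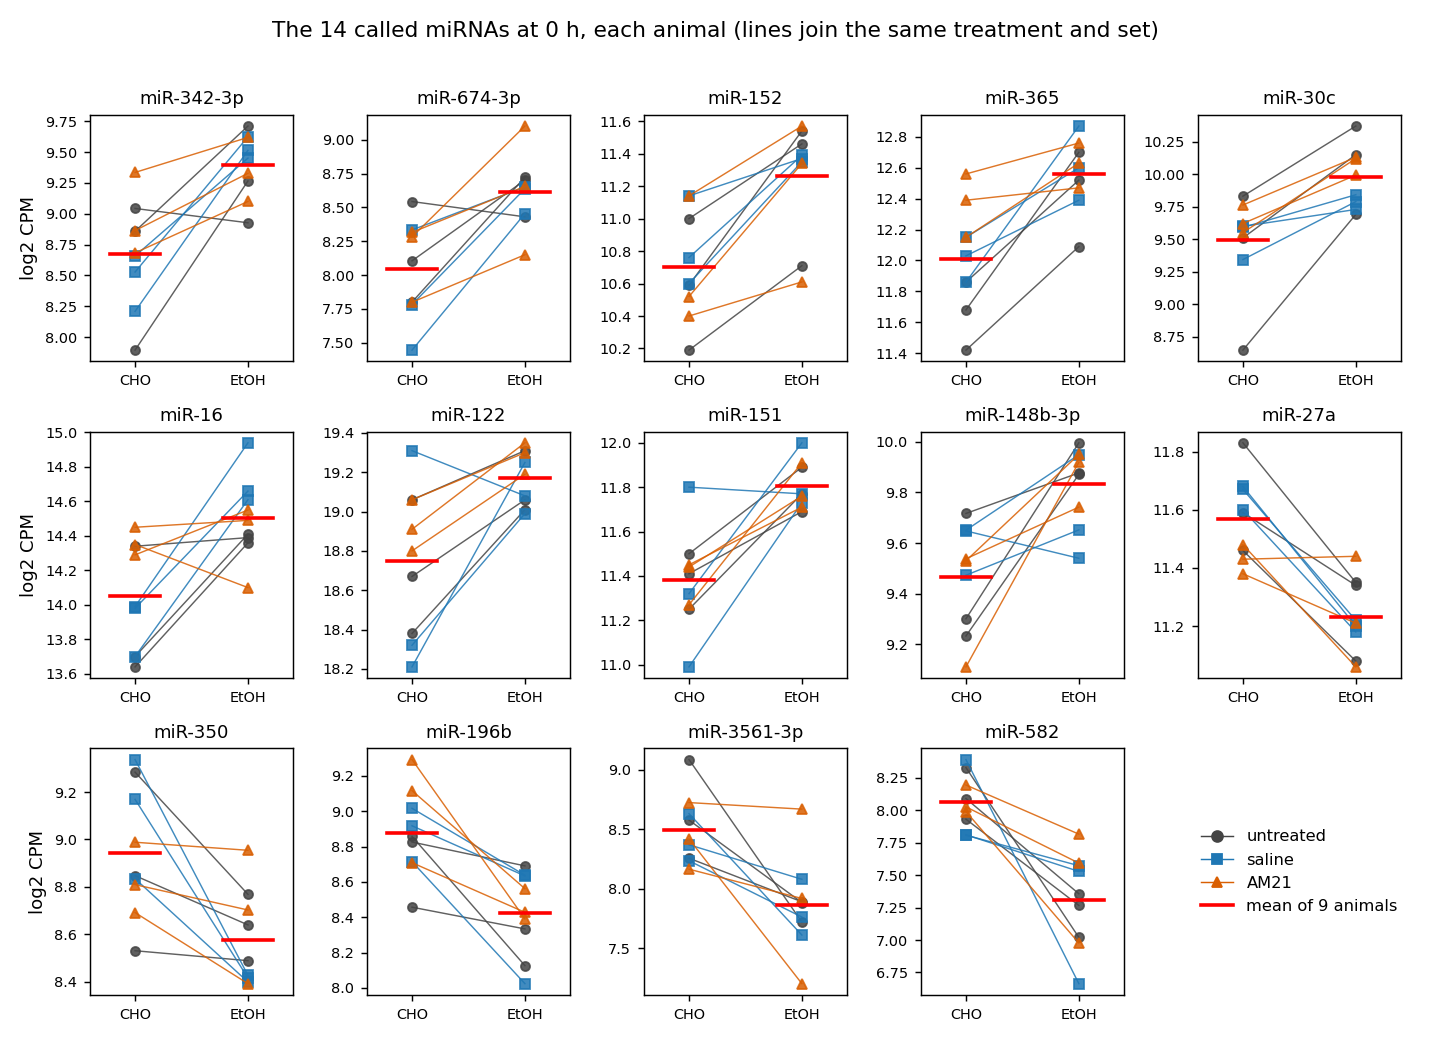
log2 CPM of the 14 called miRNAs in each of the 18 animals at 0 h, 1 panel per miRNA with its own axis, ordered from the largest positive to the largest negative difference. Lines join animals of the same treatment and set, and red bars are means of 9 animals. All 9 lines rise for miR-152, miR-365 and miR-30c and all 9 fall for miR-350, miR-196b, miR-3561-3p and miR-582.

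Just outside the threshold were miR-26a and miR-210 (limma adjusted p = 0.0503 each), followed by miR-532-5p, miR-667, miR-455 and let-7a (0.0583 each). miR-210, the miRNA induced by hypoxia-inducible factor, ran from 8.24 to 9.59 in CHO-fed animals (median 9.20) and from 9.35 to 10.03 in EtOH-fed animals (median 9.62). Its difference was 0.57 (SE 0.18). It was largest in untreated animals, at 0.99, with 0.50 in saline-treated and 0.23 in AM21-treated animals (SE 0.31 each). With the depth covariate it was 1.14 (adjusted p = 0.0144). miR-26a differed by -0.43 (SE 0.14) and fell in 9 of 9 pairs. miR-103, linked to insulin sensitivity, ran from 8.54 to 9.41 in CHO-fed animals (median 9.02) and from 8.98 to 9.42 in EtOH-fed animals (median 9.36). It differed by 0.27 (SE 0.13, limma adjusted p = 0.185) over all animals. Within treatments it differed by 0.66 in untreated, -0.04 in saline-treated and 0.21 in AM21-treated animals (SE 0.20 each).

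Whether the diet difference depended on treatment was tested with the interaction of diet and treatment. limma called 0 of 143 miRNAs (0%), the smallest adjusted p was 0.995, and 3 miRNAs had an unadjusted p under 0.05. These were miR-31 (unadjusted p = 0.0156 in limma), miR-16 (0.0204) and miR-674-5p (0.0455). For miR-31 the difference was 0.24 in untreated, 0.65 in saline-treated and -0.42 in AM21-treated animals (SE 0.23 each). For miR-674-5p it was -0.48, -0.35 and 0.32 (SE 0.22 each). Without the 2 saline libraries of low miR-21 it called 0, with 0 at an unadjusted p under 0.05. All 14 called miRNAs then still had the same sign within saline-treated animals, where 1 EtOH-fed animal remained. These animals also entered the calls, so the agreement is not a separate test. The largest change of these saline values was for miR-3561-3p, from -0.59 to -0.20 (SE 0.44). The lack of calls does not show that the differences were equal.

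**Figure D3:**
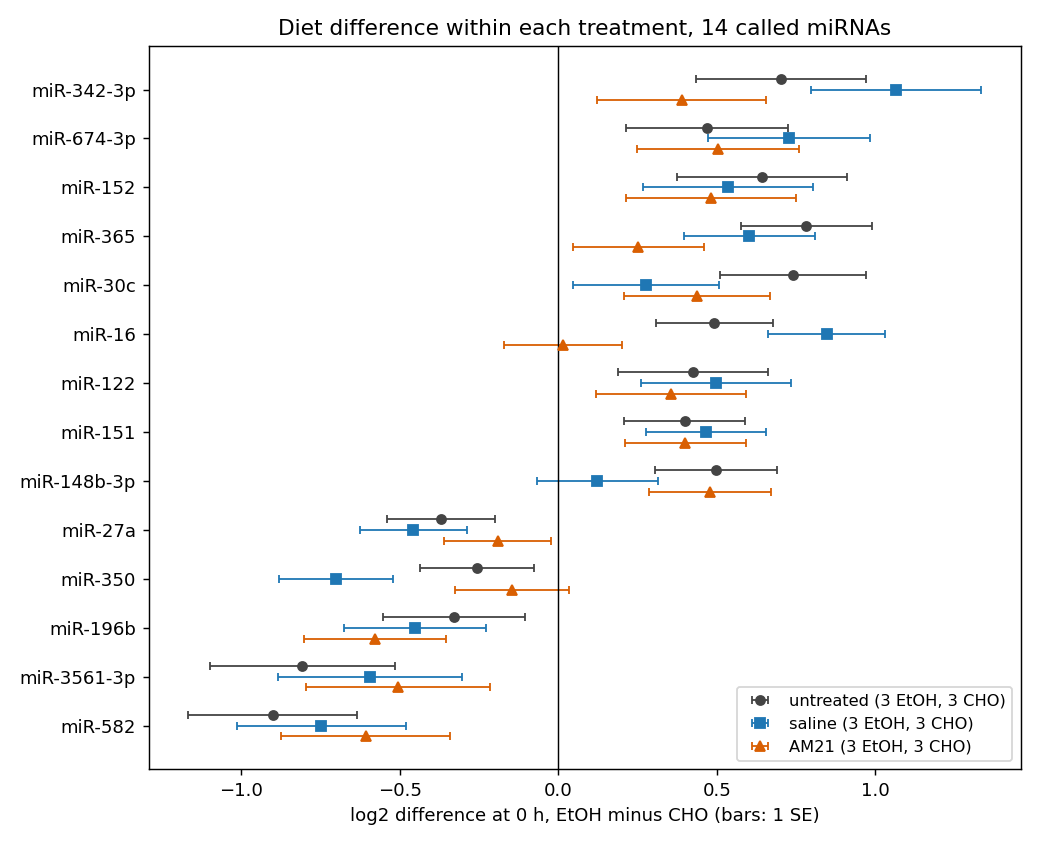
Difference between diets (EtOH minus CHO, log2) within untreated, saline-treated and AM21-treated animals at 0 h for the 14 called miRNAs, from 1 fit with diet, treatment, their interaction and set. Points are estimates from 3 EtOH-fed and 3 CHO-fed animals and bars 1 SE. All 3 points of each miRNA lie on the same side of 0, with miR-16 of AM21-treated animals closest to it at 0.02. The 14 were called over these same animals.

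miRNAs sharing a seed did not all move together. Of the miR-30 seed group, 5 of 5 measured members were positive on the deposited scale, with a median of 0.18, and only miR-30c was called. Scaled to total count 1 of the 5 was positive and 4 negative, so this direction rested on the scaling. Of the miR-15/16 seed group 4 of 5 were positive (3 of 5 scaled to the 100 highest probes or to total count). miR-16 was called, miR-322 was at 0.25 with 9 of 9 pairs higher (limma adjusted p = 0.155) and miR-497 was at -0.23 (adjusted p = 0.257). miR-15b, which lies 146 bases from miR-16 in Smc4, differed by 0.29 with an SE of 0.22 (adjusted p = 0.410).

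The let-7 seed group, which restrains growth through Ras and Lin28, split into 4 positive and 4 negative of 8 members, with a median of -0.02. let-7a was at 0.40 (SE 0.13, limma adjusted p = 0.0583), while miR-98 was at -0.33 (SE 0.12, adjusted p = 0.0788) and let-7b at -0.28 (SE 0.11, adjusted p = 0.127). Scaled to total count 1 of the 8 was positive and 7 negative. miR-27a and miR-27b, which share a seed and nearly all other bases, were at -0.34 and -0.19 (adjusted p = 0.227 for the latter). miR-23a and miR-24, whose genes lie 164 and 133 bases from miR-27a, were at 0.14 and 0.05 (adjusted p = 0.410 and 0.777). Members that differ by single bases can share probe counts, and probe specificity was not tested here.

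**Figure D4:**
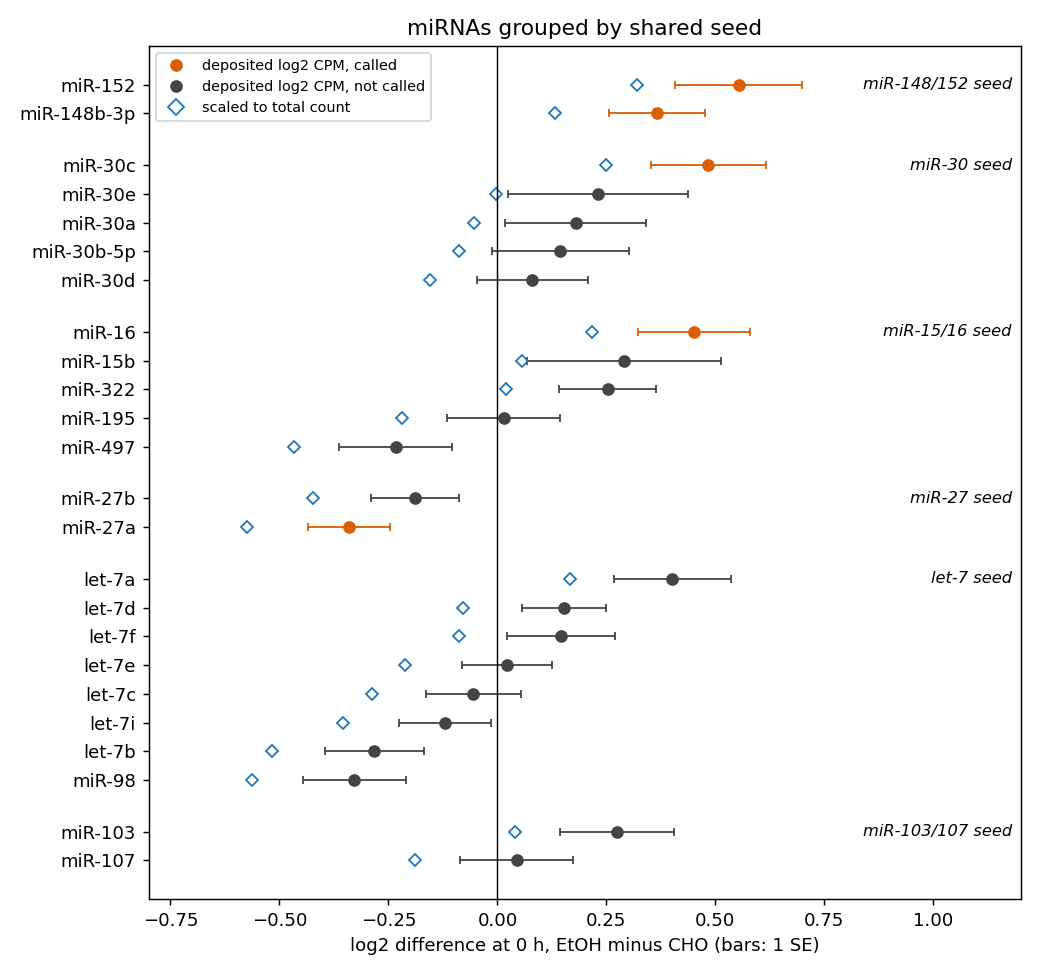
Difference between diets at 0 h (EtOH minus CHO, log2) for miRNAs in 6 seed groups. Filled circles are the deposited scale with bars of 1 SE, orange where called, and open diamonds are the same fit scaled to total count, which lies 0.23 lower. Both miR-152 and miR-148b-3p lie right of 0 on both scales, whereas 4 of 5 miR-30 members cross 0. Scaled to total count that pair was at 0.32 and 0.13, and neither was called.

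Lists of miRNAs tied to cell types and functions were described by their counts. On the deposited scale these are to be read against the 14 of 143 (9.79%) called over all miRNAs, 6.29% higher and 3.5% lower. Scaled to total count, 1 of 143 was called higher and 43 lower. Without the 2 saline libraries of low miR-21 none of these lists held a called member. Of 5 hepatocyte miRNAs 1 was called, miR-122, and miR-194 was at 0.25 (adjusted p = 0.297), miR-192 at 0.18 (adjusted p = 0.390) and miR-101a at -0.30 (adjusted p = 0.266). Of 4 leukocyte miRNAs 1 was called, miR-342-3p, while miR-142-3p was at 0.44 (adjusted p = 0.227), miR-223 at -0.21 (adjusted p = 0.306) and miR-150 at -0.06 (adjusted p = 0.768). The summed level of the 4 ran from 2489 to 4794 CPM (median 2849) in CHO-fed and from 3003 to 4183 CPM (median 3531) in EtOH-fed animals. Both red cell miRNAs were positive on the deposited scale and not called, miR-451 at 0.35 (SE 0.28) and miR-144 at 0.38 (SE 0.39). Their sum ran from 1037 to 5974 CPM (median 1374) in CHO-fed and from 1019 to 5257 CPM (median 2130) in EtOH-fed animals. The spread was wide within both diets. The part of leukocytes and red cells in the miR-16 and miR-342-3p differences was not tested.

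All 4 mesenchymal and stellate cell miRNAs were negative and none was called, with values from -0.23 (miR-199a-5p) to -0.02 (miR-199a-3p). Their sum ran from 14210 to 24950 CPM (median 21170) in CHO-fed and from 16480 to 21950 CPM (median 19650) in EtOH-fed animals. The endothelial miR-126 was at -0.09 (adjusted p = 0.750). Of 14 listed as rising in activated hepatic stellate cells, 1 was called higher (miR-152) and 0 lower, with 4 positive and 10 negative and a median of -0.05. Of 21 listed as falling there, 3 were called higher (miR-30c, miR-16 and miR-122) and 0 lower, with 12 positive and a median of 0.08. With total count scaling the first list had 0 called higher and 4 lower with a median of -0.28. The second had 0 higher and 3 lower with a median of -0.15. Over all 143 miRNAs that scaling called 1 higher and 43 lower, with a median of -0.28. Without the 2 saline libraries 6 of the 14 and 11 of the 21 were positive. On the deposited scale with all animals, 62 of all 143 miRNAs were positive and the median was -0.04. Of uncalled members, miR-210 and let-7b of the first list were at 0.57 and -0.28 and miR-26a of the second at -0.43.

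The endothelial (LSEC) list held 25 measured miRNAs, of which 2 were called higher (miR-151 and miR-16) and 0 lower, and its median was -0.12. With total count scaling 0 were called higher and 11 lower, with a median of -0.35. Over all 143 miRNAs that scaling called 1 higher and 43 lower, with a median of -0.28. The Kupffer cell list held 5, of which miR-152 was called, and its median was 0.02. Scaled to total count, it had 0 called higher and 2 lower, with a median of -0.21. Of 10 miRNAs tied to insulin and lipid metabolism 1 was called higher (miR-122) and 1 lower (miR-27a), with miR-130a at 0.38 (adjusted p = 0.0597) and miR-335 at 0.51 (adjusted p = 0.155). The same 2 were called among 17 miRNAs linked to alcohol in liver, of which miR-199a-5p was at -0.23 and miR-103 at 0.27. The collagen-targeting miR-29 members lay between -0.05 and 0.06. All 5 of the miR-99/100 and miR-125 group were negative on the deposited scale, with a median of -0.20 and none called, though 1 of them turned positive with RLE scaling. The miR-17/92 and miR-106b clusters, the miR-34, miR-200 and miR-221 groups and the 8 muscle, brain and testis miRNAs held no called member.

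The same contrast at 24 h after surgery came from 18 further samples, 9 per diet with the same treatments and sets. The labels do not say whether any of them came from the rats sampled at 0 h, and the fits took all samples as independent. There limma called 11 of 143 miRNAs (7.69%), 9 higher and 2 lower in EtOH-fed animals (33 at an unadjusted p under 0.05). Total counts differed less by diet, with a ratio of means of 1.06. Of the 14 called at 0 h, 2 were also called at 24 h. miR-152 differed by 0.52 (SE 0.10, limma adjusted p = 0.00727) and miR-151 by 0.27 (SE 0.08, adjusted p = 0.0439), each higher in 9 of 9 pairs. By sign, 11 of the 14 matched their 0 h value at 24 h, as did 86 of all 143. The 3 that did not were miR-674-3p (-0.07), miR-122 (-0.12) and miR-196b (0.14).

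The difference of the diet contrasts, 0 h minus 24 h, was tested over the 36 samples. limma called 0 of 143 miRNAs (0%), with 20 at an unadjusted p under 0.05. The 3 smallest were those whose sign turned. miR-674-3p had a difference of contrasts of 0.64 (SE 0.17, adjusted p = 0.0942), miR-196b of -0.60 (SE 0.17, adjusted p = 0.110) and miR-122 of 0.55 (SE 0.17, adjusted p = 0.160). For miR-152 it was 0.04 (SE 0.18, adjusted p = 0.925). Among the 12 untreated samples at 6 and 72 h, described without a test, 13 of the 14 had their 0 h sign at 6 h and 10 of 14 at 72 h, against 106 and 103 of all 143. miR-365 was at 0.73 at 6 h and 0.07 at 72 h, miR-582 at -0.63 and -0.14, and miR-152 at 0.29 and 0.56.

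**Figure D5:**
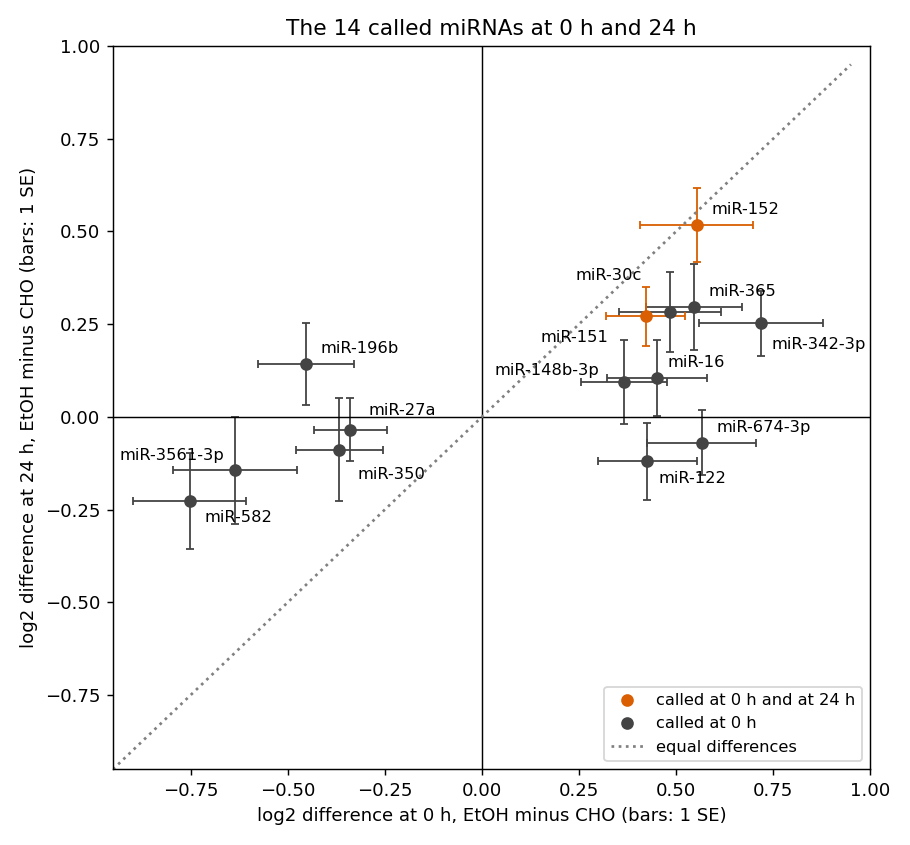
Difference between diets at 0 h (horizontal axis) and at 24 h (vertical axis), EtOH minus CHO in log2, for the 14 miRNAs called at 0 h. Bars are 1 SE, orange marks miRNAs called at both times and the dotted line marks equal differences. miR-152 lies near the line, and miR-122, miR-674-3p and miR-196b lie across 0 on the vertical axis.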

How the data were processed

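RNA of rat liver was assayed by the authors on NanoString nCounter. They deposited log2 CPM made with TMM scaling and voom. The filter that left 143 miRNAs is not given in the sources used here. All 18 animals at 0 h and 18 at 24 h were fitted with limma 3.58.1 (R 4.3.3) on the deposited log2 values, with diet, treatment and numbered set as terms, over all 143 miRNAs. P-values were Benjamini-Hochberg adjusted and called under 0.05. Whole counts were worked back from each log2 CPM with the voom prior of 0.5, and 6864 of 6864 lay within 0.001 of a whole number. They served the depth figures and the alternative scalings. Totals of 58168 to 267582 per animal limit precision for miRNAs under about 50 counts. The steps were tested on simulated data. Sets were in the fit as the comparison was defined with them. Deviations of same-numbered EtOH and CHO animals correlated at -0.13 to 0.79 (above 0.1 in 4 of 9 pairs). The 3 untreated pairs were at 0.52 to 0.79, and the saline and AM21 pairs at -0.13 to 0.19. With 3 animals per group, such correlations cannot show whether animals of the same set number were paired. Named miRNAs were all those called, miR-21, miR-210, miR-365, miR-103, the 3 smallest p of each interaction and up to 4 members per list by p. Members and lists were chosen with earlier results of these data known. Seed partners, genomic neighbours, miRNAs just past the threshold and the 8 muscle, brain and testis probes were added after values were seen. Alternatives were other scalings, filters, weights, blocks and animal subsets. Figures used matplotlib 3.10.9 in Python 3.11.15.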

Additional observations from a re-analysis of the deposited data

Results flagged for a closer look

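In the 9 CHO-fed animals at 0 h, miR-30c had 1 value far from the others, 8.648 in the untreated animal of set 2, with the next lowest animal at 9.344. That library had the lowest total of the 18, 58168 counts, and 25 counts of miR-30c. This kind of flag arises by chance in about 1 in 20 groups, and 38 groups of 9 values were examined. Without this animal limma called 19 miRNAs.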

How the results depend on the processing

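For diet at 0 h (14 called), limma called 13 with no replicate block, 15 with a random replicate block, 18 with RLE factors, 17 with voom weights, 12 with an intensity trend and 21 with 36 animals in the fit. It called 9 without set 2, 5 without AM21-treated animals, 1 without the EtOH saline animals of sets 1 and 2, 8, 0 and 6 within sets 1, 2 and 3, 44 scaled to total count and 7 of 68 with background subtracted. Leaving out 1 animal gave 1 to 22. Those that moved the count most were untreated EtOH set 1 (1, miR-582), untreated EtOH set 2 and saline EtOH set 2 (6 each), untreated CHO set 1 and AM21 EtOH set 1 (7 each), untreated CHO set 3, AM21 EtOH set 2 and saline EtOH set 3 (9 each) and saline CHO set 3 (22). miR-582 was called in 18 of 18 omissions, and miR-342-3p, miR-365, miR-151 and miR-674-3p in 17. miR-3561-3p was called in 15, miR-152 in 14, miR-196b in 12 and miR-30c in 11. The number was 9 for miR-16 and miR-27a, 5 for miR-122 and miR-148b-3p and 4 for miR-350. Keeping miRNAs with at least 50 counts in at least 3 animals gave 13 called of 127 and left out miR-582 (highest count 49). The background setting kept a mean of at least 100 counts. It left out miR-582, miR-342-3p, miR-674-3p, miR-3561-3p, miR-196b and miR-350, so these were not tested there. At 24 h (11 called) the count was 6 with no replicate block or the depth covariate, 4 with RLE factors or without set 2, 5 scaled to the 100 highest probes, 7 with background subtracted and 4 to 9 over omissions, at most 7 except without AM21 CHO set 1, saline EtOH set 1 or 2 (8 each) or saline CHO set 3 (9). For diet by time (0 called) it was 1 with RLE factors, 13 with the depth covariate, 12 scaled to total count and 0 to 9 over omissions, where leaving out saline CHO set 3 gave 9, untreated EtOH set 3 gave 2 and AM21 EtOH set 1 gave 1, all at 0 h. Diet by treatment gave 0 throughout, except 1 without the saline EtOH animal of set 3 (0 to 1 over omissions). Signs reversed for miR-152 with the depth covariate (-0.0131) and, never called, for miR-21 in untreated animals (0.458), within set 3 (0.266) and without the 2 saline libraries (0.189). The cause of these changes was not tested.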
